A study of Homo sapiens with 16 samples.

Results

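The effect of the siRNA siOGT2 on the RNA of LNCaP cells was measured while cyclin-dependent kinases were inhibited. LNCaP is a human prostate cancer cell line that responds to androgens. The comparison took 4 of the 16 samples of the series by their labels. These were 2 samples given siOGT2 and AT7519, set against 2 samples given a scrambled siRNA (Scr) and AT7519. All genes were examined, and 23830 of the 60252 genes in the count table passed the filter on low counts. Knockdown lasted 48 hours in every siRNA arm, and AT7519 at 0.5 μM or the vehicle DMSO was present for the final 4 hours. Other groups of 2 samples served to place the result: siOGT2 with DMSO against Scr with DMSO, and siOGT1, another siRNA against OGT, with AT7519. The model also held siOGT1 with DMSO and cells given OSMI2, a small-molecule inhibitor of OGT, with AT7519 or DMSO, which add to the estimate of the spread and to the mean level of a gene. Whether the 2 samples of a group were grown as separate cultures is not stated in the labels. The p-values therefore measure the spread between 2 libraries, and that spread could be technical only.

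OGT is the only enzyme that attaches O-linked N-acetylglucosamine (O-GlcNAc) to serine and threonine residues of nuclear and cytoplasmic proteins, and OGA is the enzyme that removes it. RNA polymerase II, splicing factors and chromatin regulators are among its known substrates. AT7519 is an inhibitor of several cyclin-dependent kinases that include CDK9, the kinase of P-TEFb, which releases paused RNA polymerase II into elongation. Short-lived transcripts are the first to be lost when CDK9 is inhibited.

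Total counts were 72461676 and 66662691 in the siOGT2 samples with AT7519, and 62420179 and 74725033 in the Scr samples with AT7519. Over all 16 samples they ranged between 40216911 and 147019364. Levels are given as CPM, the counts of a gene scaled to a fixed library total, with library sizes adjusted by TMM. CPM is a share of the counts of a library, so a change in the total amount of RNA per cell is not seen. The 11 luminal prostate markers were all tested and summed to 5761 and 5370 CPM with siOGT2 and to 5662 and 5249 CPM with Scr. Of 7 leukocyte markers, 6 were at or below 0.1 CPM in all 4 libraries. Of the luminal markers 3 rose and 2 fell (45.5%, beside 11.5% of protein-coding genes called). Basal markers summed to 36.8 and 43.3 CPM with siOGT2, against 34.4 and 36.1 CPM with Scr, and TP63 had no count in any of the 4 libraries. DST, which many other cells also express, made up 32.4 and 38.1 CPM of that sum with siOGT2 and 28.0 and 27.8 CPM with Scr, and was called higher. KRT14 was called lower at 0.17 and 0.39 CPM with siOGT2, against 0.78 and 0.84 CPM with Scr, and the other 3 tested basal markers were not called. With 1 library left out, the log2 fold change of DST lay between 0.21 and 0.44. That of KRT14 lay between −2.23 and −1.08. Stromal markers summed to 534.3 and 734.2 CPM with siOGT2, against 700.0 and 891.4 CPM with Scr, of which FN1 made up most. Of 8 tested stromal markers VIM rose (log2 fold change 0.91, called whichever library was left out) and COL1A1 fell (−0.68, a call lost without siOGT2 sample 1 or without Scr sample 2). Neuroendocrine markers summed to 20.7 and 17.4 CPM with siOGT2, against 17.3 and 12.9 CPM with Scr, and none of 4 tested was called. The part of these markers in the results was not tested.

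OGT, the targeted gene, was lower with siOGT2. It was at 29.3 and 33.8 CPM in siOGT2 cells with AT7519, against 255.5 and 314.3 CPM in Scr cells with AT7519. The groups did not overlap, and the level was 9.04-fold lower with siOGT2 (log2 fold change −3.18, SE 0.14, adjusted p = 6.68e-10, edgeR quasi-likelihood test). OGA was at 64.0 and 69.1 CPM with siOGT2, against 281.1 and 255.1 CPM with Scr. Both siOGT2 samples were thus below both Scr samples, and the log2 fold change was −2.01 (SE 0.22, adjusted p = 3.5e-04). Of 14 tested genes of O-GlcNAc cycling and the hexosamine pathway, 2 rose and 3 fell, and the other 9 were not called. Calls thus made up 35.7% of this list, which includes the targeted gene, beside 11.5% of protein-coding genes. The third fall was UAP1, which makes the donor sugar UDP-GlcNAc in the last step of the pathway, at 201.5 and 191.0 CPM with siOGT2 against 256.3 and 262.5 CPM with Scr (log2 fold change −0.40). GFPT1, the rate-limiting entry enzyme, was at 251.5 and 248.1 CPM with siOGT2 against 211.9 and 193.0 CPM with Scr (0.30), and PGM3, a middle enzyme of the pathway, also had a log2 fold change of 0.30. OGT and OGA were called whichever of the 4 libraries was left out. PGM3 lost its call when any one of them was left out, UAP1 without Scr sample 2, and GFPT1 without siOGT2 sample 1, without siOGT2 sample 2 or without Scr sample 2.

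Most changes other than OGT and OGA were small. With siOGT2, 1116 genes were higher (4.68% of the 23830 tested) and 829 were lower (3.48%) at an adjusted p under 0.05, together 8.16%. The median absolute log2 fold change of the called genes was 0.52, and 198 rises and 122 falls were 2-fold or larger. Both siOGT2 samples lay above both Scr samples in 5436 genes (22.8%) and below both in 5029 genes (21.1%), so a separation of the 4 samples alone was common. Protein-coding genes gave 938 rises and 733 falls among 14576 tested (11.5%). Of these, 9481 had a mean log2 CPM of at least 3, and among them 762 rises and 599 falls were called with groups that did not overlap. Counts in the gene lists below are to be read beside these shares and the 8.16% of all tested genes. Long intergenic RNAs gave 51 rises and 32 falls among 1736 tested (4.78%), and antisense genes gave 58 rises and 28 falls among 2328 tested (3.69%). The number of called genes depended on single libraries: it was 872 without Scr sample 2, 1206 without siOGT2 sample 2, 1260 without Scr sample 1 and 1520 without siOGT2 sample 1. A fit of these 4 samples alone, with its own estimate of the spread, called 247 genes.

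**Figure D1:**
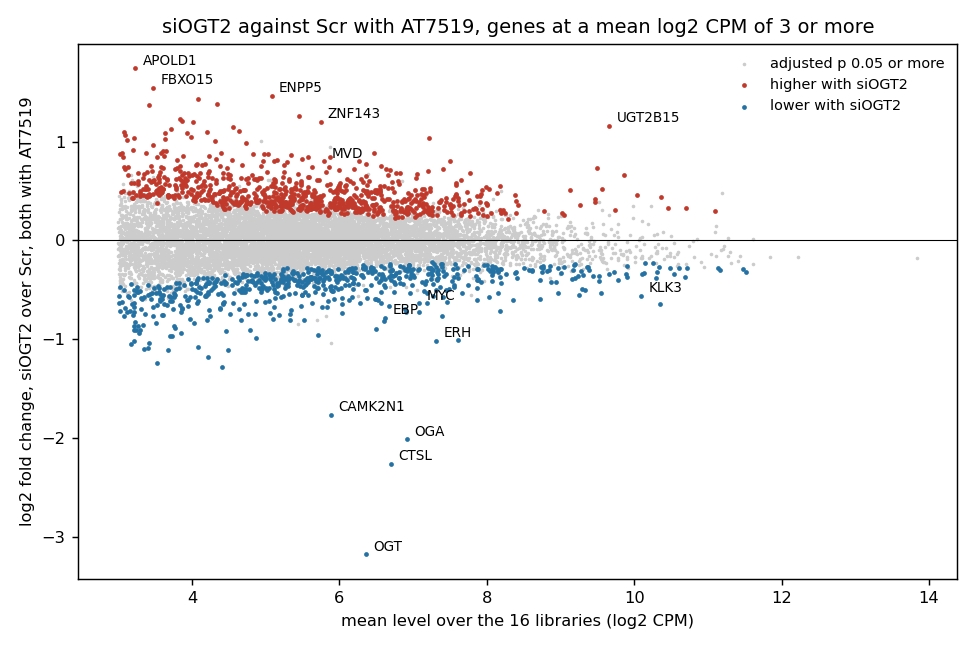
Log2 fold change of siOGT2 over Scr, both with AT7519 (vertical axis), against the mean log2 CPM over the 16 libraries (horizontal axis), for genes with a mean log2 CPM of at least 3. Red points are genes called higher and blue points genes called lower with siOGT2, and OGT, CTSL, OGA and CAMK2N1 stand below the other falls at −3.18, −2.26, −2.01 and −1.76.

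Among genes with a mean log2 CPM of at least 3, the largest fall after OGT was that of CTSL, which encodes the lysosomal protease cathepsin L. CTSL was at 41.5 and 26.9 CPM with siOGT2, against 173.0 and 154.4 CPM with Scr. The groups were far apart, and the log2 fold change was −2.26 (SE 0.16, adjusted p = 1.61e-06). Leaving out 1 library at a time moved the value between −2.61 and −1.99. CTSL was the only one of 37 tested lysosome and autophagy genes to fall, and falls numbered 2 without siOGT2 sample 2 or without Scr sample 1. Calls in this list, rises included, came to 10.8%, beside 11.5% of protein-coding genes. In the same list NEU1, the lysosomal sialidase, rose (log2 fold change 0.51). It was at 79.9 and 80.0 CPM in siOGT2 cells against 56.1 and 55.9 CPM in Scr cells. The autophagy receptor gene OPTN (0.56) and the proton pump subunit gene ATP6V1A (0.25) rose too, although OPTN lost its call without siOGT2 sample 2 or without Scr sample 2, and ATP6V1A lost its call without either of these or without Scr sample 1. The 3 rises of the list were 5 without siOGT2 sample 1, 2 without Scr sample 1 and 1 without siOGT2 sample 2 or without Scr sample 2.

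Further falls were found in genes of signalling, membrane and cell surface proteins. CAMK2N1, an inhibitor of calcium/calmodulin-dependent kinase II, was at 36.2 and 25.7 CPM with siOGT2 and at 111.8 and 98.1 CPM with Scr (log2 fold change −1.76, adjusted p = 1.13e-04). B4GALT6, a lactosylceramide synthase, was at 3.70 and 3.96 CPM with siOGT2 and at 9.15 and 8.99 CPM with Scr (−1.24). In both genes, as in every gene of this paragraph, the siOGT2 samples lay below both Scr samples. WNT7B, a Wnt ligand, fell by 1.04 on the log2 scale, with 6.08 and 7.25 CPM in siOGT2 cells against 14.9 and 12.6 CPM in Scr cells. GRIN3A, an NMDA receptor subunit, fell by 1.05, CLDN8, a tight junction claudin, by 1.10, and FRMPD2 by 1.02. BORCS7, a subunit of the complex that positions lysosomes, was at 18.1 and 14.9 CPM with siOGT2 and at 38.7 and 32.8 CPM with Scr (−1.11). BTG1, an antiproliferative transcript, had a log2 fold change of −1.28. MAMDC4 (−1.18), GABBR1 (−1.08), a GABA-B receptor subunit, and YJEFN3 (−1.09) also fell. GABBR1 lost its call without siOGT2 sample 1, without siOGT2 sample 2 or without Scr sample 2, and YJEFN3 lost it without siOGT2 sample 1 or without Scr sample 2.

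ERH, a small nuclear protein that takes part in RNA processing, was the most abundant of the 15 largest falls in Scr cells apart from OGT and OGA. It was at 132.7 and 115.4 CPM with siOGT2, against 257.8 and 243.2 CPM with Scr. The separation was wide next to the spread within each group, and the log2 fold change was −1.01 (SE 0.08, adjusted p = 9.4e-07). CLGN, a chaperone of the endoplasmic reticulum, was similar in size at 131.1 and 115.3 CPM with siOGT2 against 254.7 and 240.2 CPM with Scr (−1.01).

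In the annotation used, 932 of the 1945 called genes overlap another tested gene. The same count over all tested genes was not taken, so this is not shown to be more than usual. It is not stated whether reads were counted by strand, so those of overlapping genes cannot be told apart. Among the falls this applies to ERH (with SLC39A9), BTG1 (with BTG1-DT and LINC01619), MAMDC4 (with PHPT1), YJEFN3 (with NDUFA13) and B4GALT6. Among the rises it applies to APOLD1 (with DDX47), TMOD2 (with LYSMD2), CCT6B (with LIG3 and ZNF830), PTPN21 (with SPATA7), RDH10 (with RPL7), ARHGAP4 (with NAA10) and ATP8B2 (with RNU7-57P).

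Among protein-coding genes with a mean log2 CPM of at least 3, the 15 largest rises were between 2- and 4-fold. FBXO15, an F-box protein, was at 20.5 and 16.9 CPM with siOGT2, against 6.31 and 6.50 CPM with Scr (log2 fold change 1.54, SE 0.15, adjusted p = 4.86e-06). ENPP5, a member of the ectonucleotide pyrophosphatase family, was at 41.6 and 41.5 CPM with siOGT2, against 17.2 and 13.0 CPM with Scr (1.46). SERPINI1, the serine protease inhibitor neuroserpin, was at 45.7 and 32.8 CPM with siOGT2, against 15.2 and 14.8 CPM with Scr (1.38). In all 3 genes the siOGT2 samples were both above both Scr samples. LMLN, a leishmanolysin-like metallopeptidase, rose by 1.25 on the log2 scale, PUDP, pseudouridine 5′-phosphatase, by 1.21, CLCN5, a chloride/proton exchanger, by 1.15, and PCLO, a presynaptic scaffold protein, by 1.13. MFAP3L rose by 1.10 and PTPN21, a protein tyrosine phosphatase, by 1.10, although PTPN21 lost its call without Scr sample 1, without Scr sample 2 or without siOGT2 sample 2. APOLD1 had a log2 fold change of 1.74, TMOD2, which caps actin filaments, one of 1.43, CCT6B, a chaperonin subunit, one of 1.23, and ATP8B2, a phospholipid flippase, one of 1.20.

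**Figure D2:**
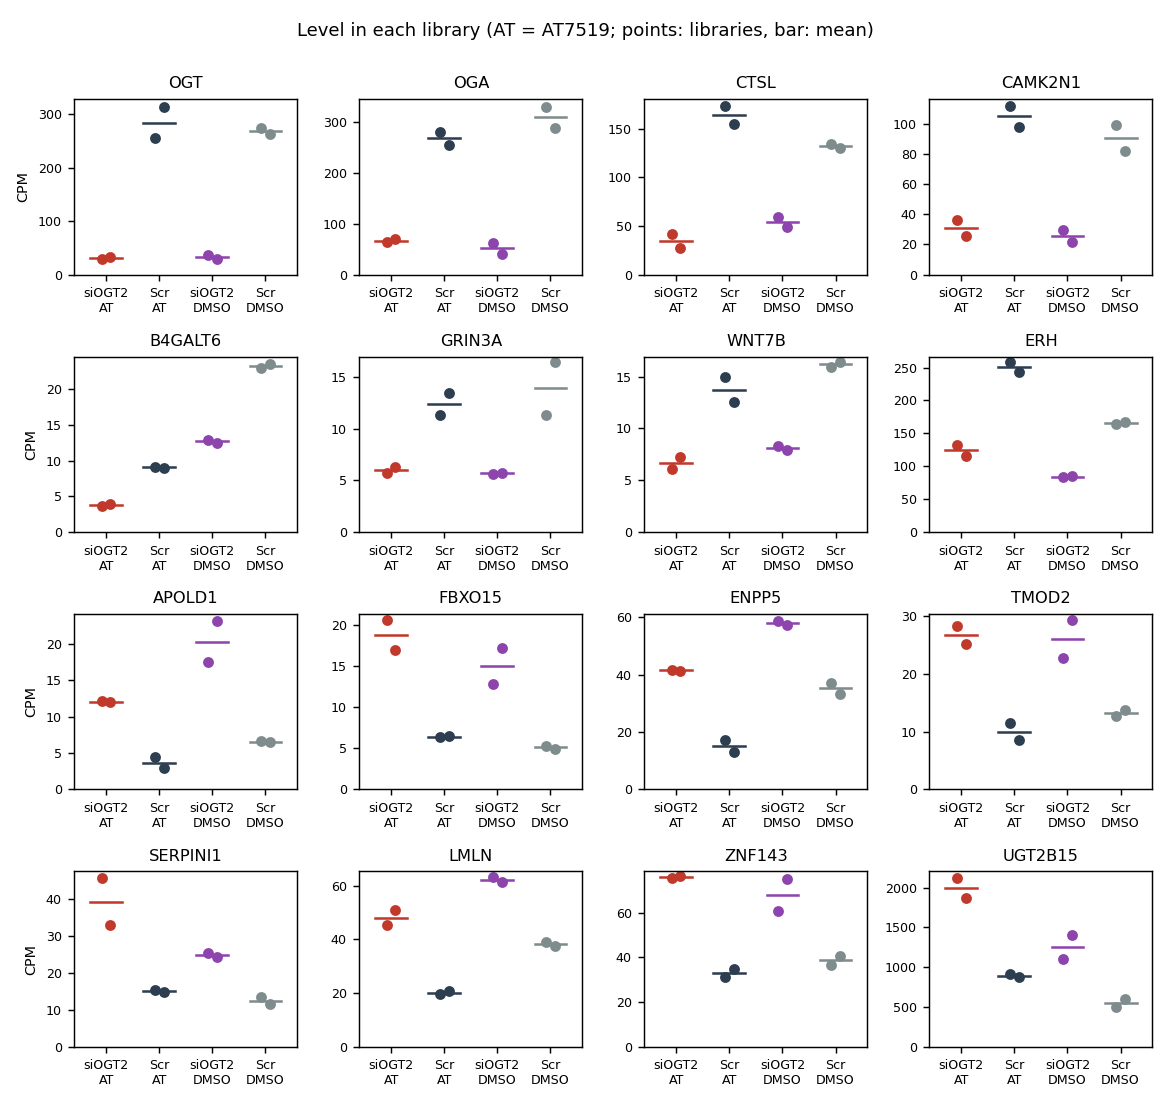
CPM in each library for 16 of the genes with the largest falls (upper 2 rows of panels) and rises (lower 2 rows), as points with a bar at the mean of 2 libraries. From left to right in each panel stand siOGT2 with AT7519, Scr with AT7519, siOGT2 with DMSO and Scr with DMSO; OGT sits at 29.3 and 33.8 CPM in siOGT2 with AT7519 and at 255.5 and 314.3 CPM in Scr with AT7519.

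ZNF143, a zinc finger transcription factor that binds promoters of many widely expressed genes, was among the 15 largest rises. It was at 75.3 and 76.1 CPM with siOGT2, against 31.4 and 34.6 CPM with Scr, and the 2 groups were far apart. The log2 fold change was 1.20 (SE 0.10, adjusted p = 1.61e-06), and it lay between 1.11 and 1.28 in the alternatives tried. Promoters were also searched on both strands for ACTACAA, the start of the site that ZNF143 is known to bind. This motif was chosen after the values were seen, as 1 of 5 motifs searched, and its share is a description with no test. Promoters of 300 bases (250 before to 50 after the start, RefSeq, GRCh38.p14) matched 11690 of 14574 tested protein-coding symbols. ACTACAA was in the promoter of 53 of 763 genes called higher (6.95%) and of 13 of 593 genes called lower (2.19%). It was in 514 of the 11690 tested genes (4.40%) and in 974 of all 35116 promoters of the table (2.77%). The other 4 motifs differed less between the genes called higher and those called lower: CACGTG was in 12.7% and 13.0%, TTTCGCG in 3.01% and 3.71%, GGGCGG in 79.2% and 77.4%, and CCAAT in 42.2% and 46.0%.

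Promoters of 3 genes called higher that hold ACTACAA and have a mean log2 CPM of at least 3 are shown. Each match can thus be seen in its surroundings. The 3 were taken by size of rise from only a part of such genes, so larger rises among the others are possible. Capitals mark ACTACAA or its reverse complement TTGTAGT, and a match describes the letters and not a bound site. They lie at chr1:25998014-25998313 (PAFAH2), chr10:5666546-5666845 (ASB13) and chr13:30306962-30307261 (KATNAL1), all on the minus strand of GRCh38.p14, and are written 5′ to 3′ in the direction of the gene.
PAFAH2: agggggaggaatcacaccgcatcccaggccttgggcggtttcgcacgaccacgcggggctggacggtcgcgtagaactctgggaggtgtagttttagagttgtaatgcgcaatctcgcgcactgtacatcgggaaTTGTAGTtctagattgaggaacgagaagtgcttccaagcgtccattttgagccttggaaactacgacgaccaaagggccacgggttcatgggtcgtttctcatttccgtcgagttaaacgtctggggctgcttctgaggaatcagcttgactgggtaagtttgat
ASB13: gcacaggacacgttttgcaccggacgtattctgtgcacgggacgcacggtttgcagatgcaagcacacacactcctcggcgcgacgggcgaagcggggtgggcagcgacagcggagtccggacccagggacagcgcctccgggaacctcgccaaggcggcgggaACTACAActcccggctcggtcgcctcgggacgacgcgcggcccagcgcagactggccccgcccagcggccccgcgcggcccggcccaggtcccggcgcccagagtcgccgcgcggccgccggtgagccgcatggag
KATNAL1: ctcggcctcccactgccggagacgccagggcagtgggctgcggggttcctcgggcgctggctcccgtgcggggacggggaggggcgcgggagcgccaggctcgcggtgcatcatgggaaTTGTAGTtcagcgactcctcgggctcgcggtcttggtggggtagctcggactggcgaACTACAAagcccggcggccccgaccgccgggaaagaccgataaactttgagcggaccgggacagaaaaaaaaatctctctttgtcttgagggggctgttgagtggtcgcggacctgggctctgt

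PAFAH2, which encodes an enzyme that hydrolyses platelet-activating factor, was at 19.3 and 18.0 CPM with siOGT2, against 9.46 and 8.59 CPM with Scr (log2 fold change 1.05, adjusted p = 2.80e-05). ASB13, an ankyrin repeat and SOCS box protein, was at 21.1 and 18.5 CPM with siOGT2, against 12.8 and 8.78 CPM with Scr (0.88). KATNAL1, a katanin-like microtubule-severing protein whose promoter holds 2 matches and is 1 of 2 starts in the table, was at 14.2 and 14.1 CPM with siOGT2, against 8.66 and 7.46 CPM with Scr (0.82). The siOGT2 samples lay above both Scr samples in all 3 genes.

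Genes of cholesterol and fatty acid synthesis moved mostly upward. Of 34 tested members, 13 rose and 1 fell, against 4.68% and 3.48% of all tested genes, and the median log2 fold change was 0.33, against 0.006 over all tested genes. MVD, which makes isopentenyl diphosphate in the mevalonate pathway, was at 68.2 and 73.4 CPM with siOGT2, against 41.0 and 40.4 CPM with Scr (log2 fold change 0.80, adjusted p = 6.72e-05). MSMO1, a sterol C4-methyl oxidase, was at 239.0 and 218.0 CPM with siOGT2, against 141.5 and 135.7 CPM with Scr (0.72). ACACA, the acetyl-CoA carboxylase that commits carbon to fatty acid synthesis, was at 925.4 and 970.7 CPM with siOGT2, against 670.8 and 647.0 CPM with Scr (0.52). The siOGT2 samples were above both Scr samples in each. The other rises included those of LSS (0.71), SQLE (0.45), DHCR7 (0.44), MVK (0.41), STARD4 (0.41), IDI1 (0.39), ACLY (0.36) and TM7SF2 (0.36). The 1 fall was that of EBP, the sterol isomerase, at 76.1 and 94.4 CPM with siOGT2 against 143.0 and 150.0 CPM with Scr (−0.78). The transcription factor genes of the pathway did not pass the test: SREBF1 had a log2 fold change of 0.05 and SREBF2 had one of −0.01. Rises numbered 7 without Scr sample 2 and 10 to 12 without any other library. The calls of MVD, MSMO1, ACACA, LSS, ACLY and EBP held whichever library was left out, and those of the other 8 members did not.

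Some UGT2B enzymes, UGT2B15 and UGT2B17 among them, attach glucuronic acid to androgens and so inactivate them in prostate cells. Of 7 tested members 4 rose and none fell, with a median log2 fold change of 0.66. UGT2B15 was at 2122 and 1876 CPM with siOGT2, against 909.9 and 877.5 CPM with Scr, and no sample of one group reached the other (log2 fold change 1.16, SE 0.13, adjusted p = 4.98e-05). UGT2B17 was at 1838 and 1479 CPM with siOGT2, against 1090 and 1012 CPM with Scr (0.66). UGT2B11 was at 367.5 and 351.1 CPM with siOGT2, against 167.8 and 183.7 CPM with Scr (1.03), and UGT2B4 had a log2 fold change of 1.34. UGT2B28 (0.61), UGT2B10 (0.41) and UGT2B7 (0.29) were not called. UGT2B11 lost its call when any one of the 4 libraries was left out. These genes belong to the same family and are similar in sequence, some more than others, so the division of their reads among them can be uncertain.

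Androgen-responsive genes went both ways. Of 47 tested members 7 rose and 7 fell (29.8%, beside 11.5% of protein-coding genes called). KLK3, which encodes prostate-specific antigen, was at 780.2 and 727.3 CPM with siOGT2, against 1123 and 1096 CPM with Scr (−0.56, adjusted p = 0.0034). KLK4, a related kallikrein, was at 88.7 and 93.0 CPM with siOGT2, against 135.8 and 163.2 CPM with Scr (−0.72). KLK2 had a log2 fold change of −0.53, and it lost its call without siOGT2 sample 1 or without Scr sample 2. SLC45A3, a luminal transporter gene also known as prostein, was higher at 237.3 and 232.9 CPM with siOGT2 against 164.2 and 144.1 CPM with Scr (0.61). ACP3, prostatic acid phosphatase, had a log2 fold change of 0.56 and FOLH1, prostate-specific membrane antigen, one of 0.33. The samples of the groups did not overlap in KLK3, KLK4 or SLC45A3. In bulk RNA, fewer cells with a transcript and less of it per cell cannot be told apart. Without Scr sample 2 the androgen-responsive list had 1 rise and 4 falls, and without siOGT2 sample 1 it had 5 rises and 3 falls. ACP3 and FOLH1 lost their call in either case, while KLK3, KLK4 and SLC45A3 kept it whichever library was left out. Among 17 lineage factors, ETV1 (−0.57), an ETS factor, and GATA2 (−0.51), a zinc finger factor, fell and ONECUT2 (0.62) rose, and ONECUT2 lost its call without siOGT2 sample 2, Scr sample 1 or Scr sample 2.

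Genes of DNA replication and the start of S phase were mostly lower. Of 45 tested members of the G1/S list, 2 rose and 15 fell, and the median log2 fold change was −0.28. CCNE1, cyclin E1, was at 6.20 and 6.31 CPM with siOGT2, against 10.3 and 10.4 CPM with Scr (log2 fold change −0.73). The replicative helicase genes MCM5 (−0.58), MCM2 (−0.57), MCM7 (−0.48), MCM4 (−0.34) and MCM6 (−0.28) fell together with the loading factor genes CDC6 (−0.45) and CDT1 (−0.47) and the sliding clamp gene PCNA (−0.40). MCM2 was at 174.5 and 152.6 CPM with siOGT2 and at 243.5 and 241.3 CPM with Scr, again without overlap. The 2 rises were those of CCND1, cyclin D1 (0.41), and its partner kinase gene CDK6 (0.70). Falls numbered 6 without siOGT2 sample 2 or without Scr sample 1, 9 without Scr sample 2 and 16 without siOGT2 sample 1. CCNE1, MCM5, MCM2 and MCM7 were called whichever library was left out. CCND1 lost its call without Scr sample 2, and CDK6 lost it when any one library was left out. Of 44 mitotic genes 1 rose and 8 fell, among them KIF20A (−0.47), UBE2C (−0.40) and CDK1 (−0.38). The 8 mitotic falls were 14 without siOGT2 sample 1, and 1 without siOGT2 sample 2, and 3 without either Scr sample.

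Some components of protein synthesis were lower by small amounts. Of 78 cytosolic ribosomal protein genes none rose, 24 fell and 54 were not called, with a median log2 fold change of −0.20. RPS16 was at 824.0 and 811.5 CPM with siOGT2, against 1125 and 1240 CPM with Scr (−0.53, adjusted p = 9.4e-05). The count depended strongly on the library: it was 47 without siOGT2 sample 1, 14 without Scr sample 2, 8 without Scr sample 1 and 6 without siOGT2 sample 2, with medians between −0.33 and −0.11. Of 41 translation initiation factor genes 1 rose and 4 fell (12.2%, beside 11.5% of protein-coding genes called), with a median of −0.09. Of 26 snoRNA host genes, whose transcripts carry small nucleolar RNAs in their introns, 8 fell and none rose. SNHG3 was at 109.3 and 93.7 CPM with siOGT2, against 179.0 and 176.9 CPM with Scr (−0.81, adjusted p = 1.37e-05). SNHG9 (−0.69) and SNHG29 (−0.55) fell as well, and falls in the list numbered 5 without siOGT2 sample 2 or without Scr sample 1 and 6 without either of the others. SNHG3 overlaps RCC1 and SNORA73B in the annotation.

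MYC, which drives ribosome production and cell growth, was at 118.3 and 104.9 CPM with siOGT2, against 175.5 and 171.5 CPM with Scr. It fell by 0.64 on the log2 scale (SE 0.08, adjusted p = 5.79e-05), and the groups did not overlap. Of 39 MYC and MYC target genes tested 9 fell and none rose, among them ODC1 (−0.59), the first enzyme of polyamine synthesis, PA2G4 (−0.45) and the nucleolar methyltransferase gene FBL (−0.32). Falls in this list numbered 4 without Scr sample 2 and 10 without siOGT2 sample 1. FBL lost its call without Scr sample 2. Of 39 immediate early and feedback genes 9 fell and none rose, and their median log2 fold change was −0.32. NR4A1, an orphan nuclear receptor, was at 2.10 and 2.25 CPM with siOGT2, against 4.79 and 3.77 CPM with Scr (−0.97). ZFP36L1, which destabilises mRNA, had a log2 fold change of −0.55, JUNB one of −0.69 and the phosphatase gene DUSP4 one of −1.11. Leaving out siOGT2 sample 2 left 5 falls in the immediate early list, and DUSP4 lost its call without that library or without Scr sample 1.

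Of 33 apoptosis regulators 1 rose and 3 fell (12.1%, beside 11.5% of protein-coding genes called). PMAIP1, the pro-apoptotic gene of NOXA, was at 8.88 and 6.03 CPM with siOGT2, against 14.8 and 12.9 CPM with Scr (−0.89, adjusted p = 0.0013), and its groups did not overlap. The other falls were those of the pro-apoptotic genes BBC3 (−0.77) and BAX (−0.36), which each lost their call in 3 of the 4 fits that leave out 1 library. MCL1, a short-lived anti-apoptotic gene, had a log2 fold change of 0.04 and was not called.

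The study's title asks about CDK9 inhibition and splicing. CDK9 was at 83.9 and 84.2 CPM with siOGT2, against 92.0 and 92.0 CPM with Scr (log2 fold change −0.13, not called), and HEXIM1, an inhibitor of P-TEFb, had a log2 fold change of 0.08. Of 36 genes of P-TEFb, the 7SK particle and elongation 1 rose and 2 fell (8.33%, beside 11.5% of protein-coding genes called). Of 19 genes of other transcription kinases and L cyclins none was called by edgeR. AFF1, a scaffold of the super elongation complex, rose by 0.51, and 1 of the 2 falls was that of the elongation factor gene TCEA1 (−0.29). AFF1 and TCEA1 lost their call without siOGT2 sample 2 or without Scr sample 1. Of 59 SR protein, hnRNP and splicing regulator genes 10 fell and none rose (median −0.16). HNRNPAB was at 175.9 and 170.6 CPM with siOGT2, against 272.9 and 260.2 CPM with Scr, a clear separation (−0.62, adjusted p = 2.2e-05). SRPK1, a kinase of SR proteins, had a log2 fold change of −0.44, HNRNPF one of −0.40 and HNRNPA1 one of −0.28. Of 56 core spliceosome genes 1 rose and 7 fell (14.3%, beside 11.5% of protein-coding genes called). Among the falls were SNRNP35 (−0.55), SF1 (−0.42), SNRNP70 (−0.35) and PRPF19 (−0.34). Falls among the splicing regulators numbered 4 without Scr sample 1 or without Scr sample 2, and core spliceosome falls numbered 3 without Scr sample 2 and 4 without Scr sample 1. The calls of HNRNPAB, SNRNP70 and PRPF19 held whichever of the 4 libraries was left out, and those of SRPK1, HNRNPF, HNRNPA1, SNRNP35 and SF1 did not. The table holds 1 count per gene, so splicing itself was not measured.

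RNA interference machinery was, like the UGT2B family, a list in which the called members all rose. Of 13 tested members 4 rose, with a median log2 fold change of 0.18, and all 4 rises were called whichever library was left out. TNRC6A, a partner of Argonaute in silencing, was at 92.8 and 118.3 CPM with siOGT2, against 61.7 and 69.8 CPM with Scr (0.68, adjusted p = 2.6e-04). AGO2, the Argonaute that cuts targets, was at 80.7 and 101.2 CPM with siOGT2, against 55.0 and 65.3 CPM with Scr (0.60). AGO4 (0.62) and AGO1 (0.51) rose as well, while AGO3 (0.29) and DICER1 (0.18) were not called. In TNRC6A and AGO2 both siOGT2 samples were above both Scr samples.

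Other lists held single genes with larger values. MAP4K1, a kinase upstream of JNK, was at 10.6 and 15.7 CPM with siOGT2, against 4.14 and 4.30 CPM with Scr (log2 fold change 1.64, adjusted p = 1.04e-05), and 4 of 29 JNK and p38 pathway genes rose and 1 fell. TRAK2, an OGT-binding adaptor of mitochondrial transport, was at 64.5 and 65.0 CPM with siOGT2, against 42.7 and 36.5 CPM with Scr (0.71). Both groups of 2 were clearly apart in MAP4K1 and TRAK2. NBN, a sensor of DNA breaks, had a log2 fold change of −0.64, and 4 of 54 repair and checkpoint genes fell (7.41%). Of 45 unfolded protein response genes 1 rose and 6 fell, led by PDIA4 (−0.60). Heat shock and chaperonin genes gave 5 rises and 4 falls among 39, with HSPB1 at 504.2 and 513.9 CPM in siOGT2 cells against 348.8 and 344.4 CPM in Scr cells (0.55). Interferon-stimulated genes gave 1 rise and 3 falls among 42 (9.52%), and glycolysis and hypoxia genes 5 falls among 36 (13.9%). Nuclear oxidative phosphorylation genes gave 2 falls among 61 (3.28%). No call was made among 11 replication-type histone genes. Proteasome subunit genes gave 1 rise and 2 falls among 47 (6.38%), and histone methyltransferase and demethylase genes 2 rises and 1 fall among 47 (6.38%). YAP-TEAD and TGF-beta feedback genes gave 1 rise and 3 falls among 34 (11.8%). Adhesion and integrin genes gave 1 fall among 32 (3.1%), and chromatin partners of OGT 1 rise and 1 fall among 28 (7.14%). Of protein-coding genes 11.5% were called. The called heat shock gene HSPA6 was at 0.16 and 0.14 CPM with siOGT2, against 0 and 0.015 CPM with Scr, too few counts to give a fold. The calls of MAP4K1, TRAK2, NBN and PDIA4 held whichever library was left out, and HSPB1 lost its call without siOGT2 sample 2 or without Scr sample 2. Several of these counts changed when 1 library was left out, which leaves 1 sample in its group. Without Scr sample 1, heat shock falls numbered 0. Without siOGT2 sample 2, unfolded protein response falls numbered 2 and glycolysis falls 1, and glycolysis falls also numbered 1 without Scr sample 1.

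**Figure D3:**
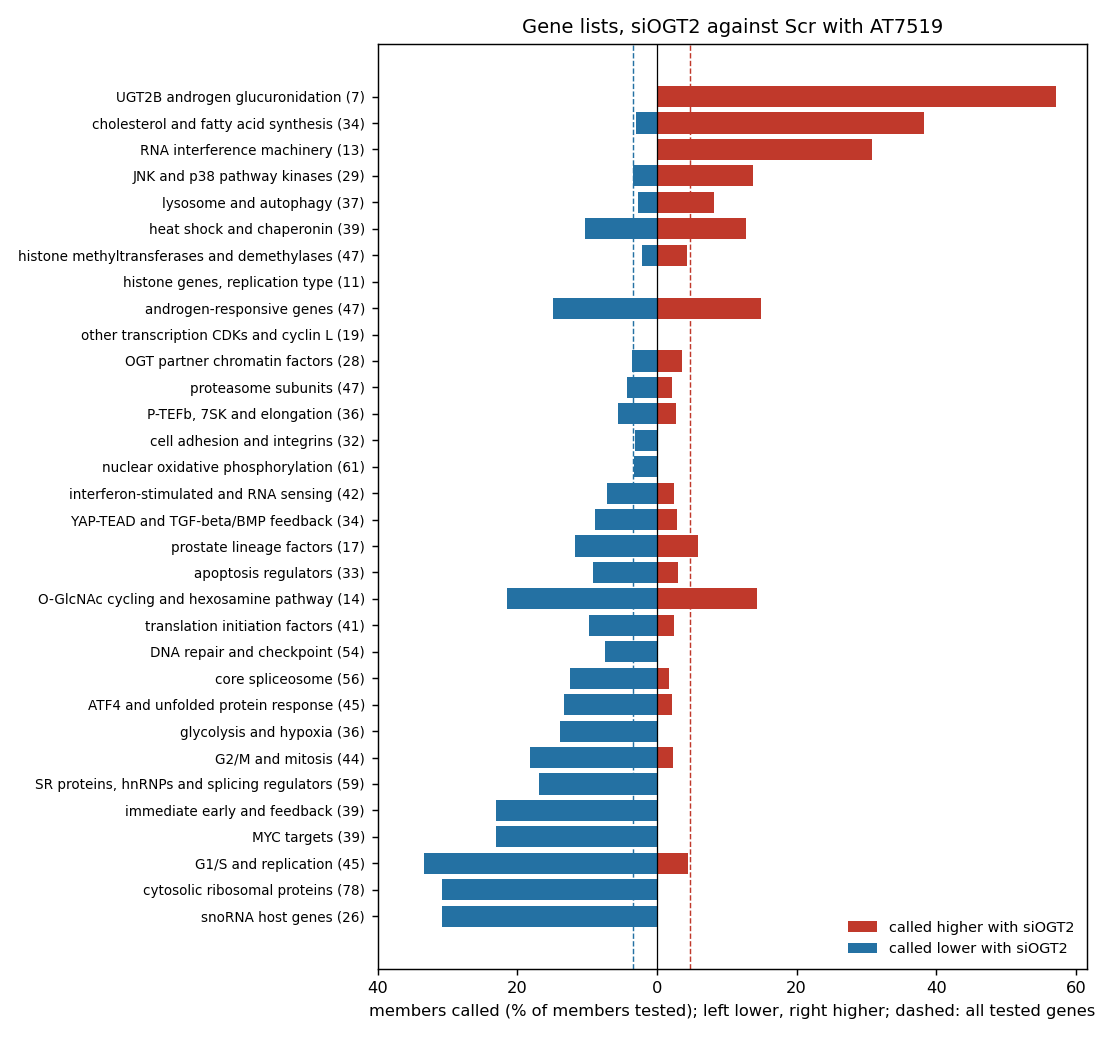
Share of the tested members of each gene list shown that was called higher (red, right) or lower (blue, left) with siOGT2 than with Scr, both with AT7519, in percent, with the number tested in brackets. Dashed lines mark all tested genes (4.68% higher, 3.48% lower); the UGT2B, cholesterol and RNA interference lists lie at the top and the snoRNA host, ribosomal protein and G1/S lists at the bottom.

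The same siRNA was also compared with Scr under DMSO, in samples that the comparison with AT7519 does not use. There 457 genes were higher (1.92%) and 568 lower (2.38%) with siOGT2, together 4.3%, and the 1025 calls were between 182 and 396 when any one of these 4 libraries was left out. Scaled by library size only, 703 genes were higher and 422 lower. OGT was at 36.0 and 29.8 CPM with siOGT2 and DMSO, against 274.0 and 263.4 CPM with Scr and DMSO, a log2 fold change of −3.03, and that of OGA was −2.59. Of the genes called with AT7519, 693 were also called with DMSO, which is 35.6% of the AT7519 calls and 67.6% of the DMSO calls. All 693 had the same direction, 352 higher and 341 lower. Of the 1945 genes called with AT7519, 1887 (97.0%) had the same sign of log2 fold change with DMSO, against 69.4% of all tested genes. Across the 10028 genes with a mean log2 CPM of at least 3 the log2 fold changes of the 2 comparisons correlated with r = 0.809, and across all 23830 genes with r = 0.253. Both values describe genes within 1 cell line and 1 experiment.

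By edgeR with the low-count filter no gene (0.0%) was called in the direct test of the difference between the siOGT2 effect with AT7519 and that with DMSO. The smallest adjusted p was 0.62, and 928 of 23830 genes had an unadjusted p under 0.05. DESeq2 called 3 genes and limma voom none. The 3 genes called by DESeq2 were CTSL (difference of log2 fold changes −0.99, adjusted p = 0.022), PUDP (0.89, adjusted p = 0.0047) and DENND6A (0.68, adjusted p = 0.0083). They are named after their values were seen. The log2 fold change of CTSL was −2.26 with AT7519 and −1.28 with DMSO, where it was at 59.5 and 49.3 CPM with siOGT2, against 134.2 and 130.4 CPM with Scr. That of PUDP was 1.21 with AT7519 and 0.30 with DMSO (not called), where it was at 20.1 and 20.4 CPM with siOGT2, against 16.4 and 16.4 CPM with Scr. By edgeR with the low-count filter neither difference was called (CTSL adjusted p = 0.99985, PUDP adjusted p = 0.62). Without that filter edgeR called 8 genes, among them CTSL (adjusted p = 1.05e-08), PUDP (adjusted p = 0.0096) and DENND6A (adjusted p = 0.022). The CTSL difference itself was −0.98 in edgeR both with and without the filter, and −0.99 in DESeq2, where the filter was kept. Why CTSL was called in some settings and not in others was not tested. Without siOGT2 sample 1 with AT7519, the difference by edgeR was −1.34 for CTSL and −8.64 for LINC01139, which had only 757 counts over all samples together.

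**Figure D4:**
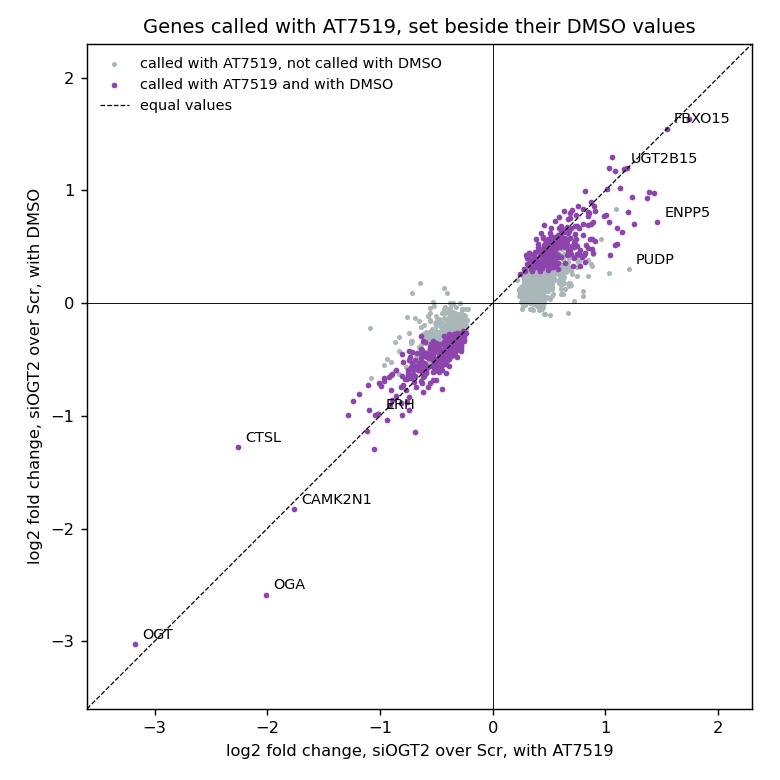
Log2 fold change of siOGT2 over Scr with DMSO (vertical axis) against that with AT7519 (horizontal axis) for the genes called with AT7519 that have a mean log2 CPM of at least 3. Purple points were also called with DMSO, grey points were not, and the dashed line marks equal values; CTSL lies at −2.26 with AT7519 and −1.28 with DMSO.

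The same gene lists were counted with DMSO, where 4.3% of all tested genes were called, against 8.16% with AT7519. UGT2B genes gave 5 rises and no fall among 7, cholesterol and fatty acid synthesis genes 8 rises and 1 fall among 34, and G1/S genes 17 falls and no rise among 45. SR protein, hnRNP and splicing regulator genes gave 14 falls among 59, and snoRNA host genes 8 falls among 26. Of 78 ribosomal protein genes 24 fell with AT7519 and 10 with DMSO, and of 39 immediate early genes 9 fell with AT7519 and 4 with DMSO. Of 13 RNA interference genes 4 rose with AT7519 and 1 with DMSO, that of TNRC6A (log2 fold change 0.47 with DMSO). For AGO4 the log2 fold change was 0.62 with AT7519 and 0.08 with DMSO, and for CCND1 it was 0.41 with AT7519 and −0.06 with DMSO. Neither gene's difference between agents was called by edgeR with the low-count filter, and differences between counts were not tested. MVD had log2 fold changes of 0.80 with AT7519 and 0.83 with DMSO, and UGT2B15 of 1.16 with AT7519 and 1.19 with DMSO.

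siOGT2 was also set directly against siOGT1, both with AT7519. In this test 849 genes were higher (3.56%) and 683 lower (2.87%) with siOGT2 than with siOGT1, together 6.43%. The 1532 calls were 841 without siOGT1 sample 2 and 999 without siOGT1 sample 1. Scaled by library size only, 735 genes were higher and 1029 lower with siOGT2. OGT was at 29.3 and 33.8 CPM with siOGT2 and at 11.0 and 11.0 CPM with siOGT1, and the difference was 1.52 on the log2 scale (adjusted p = 2.1e-06). OGA was at 64.0 and 69.1 CPM with siOGT2 and at 48.6 and 56.8 CPM with siOGT1, which did not pass the test (0.34, adjusted p = 0.46). Against Scr, siOGT1 gave 2377 rises (9.97%) and 2189 falls (9.19%), together 4566 called genes (19.2%), or 2853 without siOGT1 sample 2 and 3026 without Scr sample 2, and scaling by library size only gave 3277 rises and 1640 falls. The 3 comparisons share samples, so their values are set side by side and no overlap is drawn from them.

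CTSL, ERH and CLGN were lower with siOGT2 than with siOGT1. CTSL was at 41.5 and 26.9 CPM with siOGT2, at 174.9 and 141.6 CPM with siOGT1 and at 173.0 and 154.4 CPM with Scr. The direct difference between the siRNAs was −2.21 (adjusted p = 4.93e-07), and the log2 fold change of siOGT1 over Scr was −0.05. ERH was at 132.7 and 115.4 CPM with siOGT2, at 245.4 and 223.6 CPM with siOGT1 and at 257.8 and 243.2 CPM with Scr (difference −0.92, adjusted p = 5.47e-07). CLGN was at 131.1 and 115.3 CPM with siOGT2, at 314.7 and 287.5 CPM with siOGT1 and at 254.7 and 240.2 CPM with Scr (difference −1.29). In all 3 genes the siOGT2 samples stood below the other 4. RMI2, a subunit of a complex that resolves recombination intermediates, and CHRAC1, a histone-fold chromatin protein, fell with siOGT2 and rose with siOGT1. RMI2 had a log2 fold change of −0.76 with siOGT2 and of 0.72 with siOGT1, and CHRAC1 had one of −0.73 with siOGT2 and of 0.68 with siOGT1. CHRAC1 lost its siOGT2 call without siOGT2 sample 2 or without Scr sample 1. EBP, the 1 cholesterol gene that fell with siOGT2, was at 76.1 and 94.4 CPM with siOGT2 and at 147.9 and 136.3 CPM with siOGT1 (difference −0.74, adjusted p = 2.25e-05). UGT2B15 was at 2122 and 1876 CPM with siOGT2 and at 1141 and 1044 CPM with siOGT1 (difference 0.87, adjusted p = 4.5e-04). KLK3 was at 780.2 and 727.3 CPM with siOGT2 and at 1371 and 1183 CPM with siOGT1 (difference −0.76, adjusted p = 1.65e-04). The difference was −0.85 for KLK2 and −0.40 for KLK4, both called. The log2 fold change of siOGT1 over Scr was 0.20 for KLK3 and 0.32 for KLK2, neither called. For KLK4 it was −0.32, called lower.

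Other genes were low with siOGT1 and near their Scr level with siOGT2. MAP2K4, a kinase that activates JNK, was at 42.4 and 39.4 CPM with siOGT2, at 8.02 and 6.33 CPM with siOGT1 and at 36.1 and 28.6 CPM with Scr (difference between the siRNAs 2.52, adjusted p = 1.19e-10). GCH1, the first enzyme of tetrahydrobiopterin synthesis, was at 29.4 and 27.5 CPM with siOGT2, at 6.59 and 5.85 CPM with siOGT1 and at 31.7 and 28.0 CPM with Scr (2.20). The siOGT1 samples were the lowest in both genes. The sulfate transporter gene SLC26A2 (2.35), AGR2 (1.82), the stress granule gene G3BP2 (1.78), the histone variant gene MACROH2A1 (1.77), RNF11 (1.75) and DRAM1 (1.61) differed in the same way. Of these 8 genes, SLC26A2 alone was called against Scr with siOGT2 (0.37, adjusted p = 0.047), a call lost without siOGT2 sample 1 or without Scr sample 2. TGM3 (−1.43), GDPD1 (−1.32), FAM217B (−1.10) and MYBL1 (−1.06) were lower with siOGT2 than with siOGT1. GFPT1, called higher with siOGT2 than with Scr, had a log2 fold change of −0.83 with siOGT1 over Scr.

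**Figure D5:**
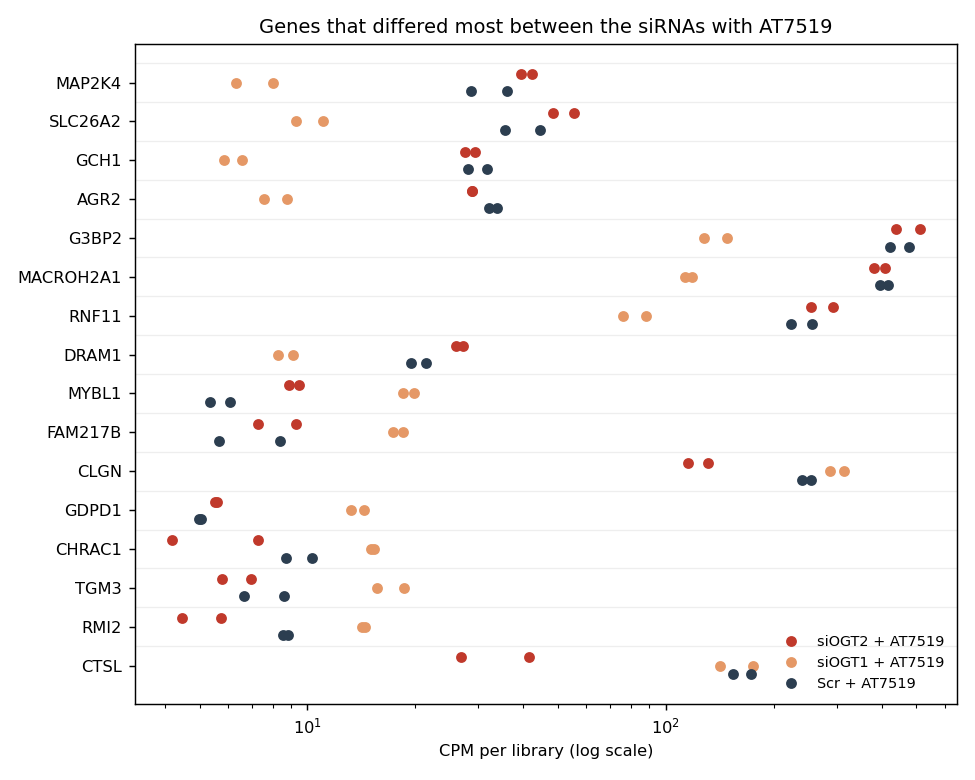
CPM per library on a log axis for the 8 genes highest and the 8 lowest with siOGT2 relative to siOGT1, both with AT7519. Each row holds siOGT2 (red), siOGT1 (orange) and Scr (dark), 2 libraries each; in the CTSL row the siOGT2 libraries stand at 41.5 and 26.9 CPM, left of the others.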

How the data were processed

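RNA of LNCaP cells was sequenced from total RNA with a strand-specific TruSeq kit, per the labels' protocols. The deposited table holds whole-number read counts per gene, which the authors made with STAR and HTSeq on hg19 (GRCh37), per the submitters' processing notes, where DESeq2 is named too. No version, read filter or counting strand is stated there. A second deposited table of normalized counts was not used. Gene IDs matched a symbol for 55528 of 60252 and a GENCODE v29 model for 55951; that annotation is on GRCh38, so it served for gene types and overlaps, and no coordinate is taken from it. RefSeq promoters are on GRCh38.p14.

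All 16 samples entered 1 model in edgeR 4.0.16 under R 4.3.3 (TMM scaling, filterByExpr on the 8 groups, 1 mean per group, robust glmQLFit, two-sided glmQLFTest, 8 residual degrees of freedom). Genes with a Benjamini-Hochberg adjusted p under 0.05 over all 23830 tested were called. The SE is the size of a log2 fold change divided by the root of its F statistic. The common biological coefficient of variation was 0.110. The test was tested on simulated data, with changes set in 200 genes drawn from all those tested. It recovered 54.7% of 2-fold changes in the comparison with AT7519 and 46.0% in the interaction. Of 1.5-fold changes it recovered 35.4% and 15.2%, so a gene not called may still have changed. Alternatives used DESeq2 1.42.0, limma voom 3.58.1, other scalings, filters, blocks and left-out libraries.

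Members and lists were chosen with earlier results of these data known. Named genes are OGT and OGA, the called protein-coding genes with the 15 greatest increases and 15 greatest decreases (mean log2 CPM of at least 3, groups that do not overlap), the 10 of each direction with the largest smaller fold in both agents, the 8 of each direction between the siRNAs, and up to 4 called members per list by adjusted p. Other list members were named after their values were seen. List counts are descriptions with no set test. Sequences of the siRNAs were not used here. Some items are not reported here.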

Additional observations from a re-analysis of the deposited data

How the results depend on the processing

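The number of genes called with AT7519 (1945) stayed within 1.5 times under DESeq2, limma voom, the 3 other scalings, both other low-count filters and a replicate block over all samples (1713 to 2714). It was 247 in a fit of only the 4 samples compared, which has 2 residual degrees of freedom, and 320 at a minimum fold of 2. Without 1 library it ranged between 872 and 1520. With DMSO the 1025 calls became 1586 by DESeq2, 1633 in the groups compared alone and 158 at a minimum fold of 2, and ranged between 182 and 396 without 1 library. Between the siRNAs the 1532 calls became 273 in the groups compared alone and 191 at a minimum fold of 2, and ranged between 841 and 1175 without 1 library. For siOGT1 against Scr the 4566 calls became 2533 and 989 in those 2 settings, and ranged between 2853 and 3427. The interaction gave 3 calls by DESeq2, 8 without a low-count filter and between 0 and 2 without 1 library. The causes were not tested.

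Replicate numbers are shared by the groups, but with 2 pairs they are not shown to pair the samples. Replicate differences correlated across genes with r = 0.712 between siOGT2 and Scr with AT7519, with r = 0.644 with DMSO and with r = −0.136 between siOGT2 with AT7519 and with DMSO. A replicate block gave 2714 calls with AT7519, 1605 with DMSO, 2123 between the siRNAs and 0 for the interaction. A replicate block within agent gave 3931, 2574, 3190 and 6. The 6 were CTSL (adjusted p = 0.0047), PUDP (adjusted p = 0.021), DENND6A (adjusted p = 0.024), RHOB (adjusted p = 0.031), PPP1R10 (adjusted p = 1.77e-04) and ENSG00000260244 (adjusted p = 0.031), by edgeR. With the block within agent, ribosomal protein genes gave 45 falls and 0 rises, and G1/S genes 26 falls and 3 rises. JNK and p38 genes gave 8 rises and 3 falls there. Whether a shift shared by replicate number moved the list counts of the fits without 1 library was not tested.

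The share of rises among the DMSO calls was 44.6%, against 55.1% with upper-quartile scaling and 62.5% with library size only; between the siRNAs it was 55.4%, against 41.7% with library size only, and for siOGT1 52.1% against 66.6%. With AT7519 it was 57.4%, against 66.6% with library size only. There falls outnumbered rises when siOGT2 sample 1 or Scr sample 2 was left out. Of 148 named genes called with AT7519, 148 were called by DESeq2, 145 by limma voom, 140 with library size only and 65 in the fit of the 4 samples compared, and between 105 and 120 without 1 library. In 4 genes that were not called, the log2 fold change with AT7519 changed sign: GCH1 (between −0.15 and 0.0063 without 1 library, above 0 without Scr sample 1), MACROH2A1 (between −0.093 and 0.0026, above 0 without siOGT2 sample 2), G3BP2 (between −0.036 and 0.18, below 0 without siOGT2 sample 1) and FAM217B (between −0.0041 and 0.54, below 0 without Scr sample 2). The list medians of O-GlcNAc cycling, other transcription kinases, oxidative phosphorylation and cell adhesion changed sign with the scaling.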
